A study of Mus musculus with 6 samples.

Results

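Transcription of 9 genes that encode R-loop resolving enzymes and their partners was followed by precision run-on sequencing (PRO-seq), which maps RNA polymerases that are engaged in transcription. The genes were *Rnaseh1*, *Rnaseh2a*, *Rnaseh2b*, *Rnaseh2c*, *Aqr*, *Dhx9*, *Top1*, *Thoc1* and *Xrn2*. They were chosen by name, as proteins known to remove or prevent R-loops, from the 14546 genes listed. Earlier results of these data were known when they were chosen. All 9 passed the filter on low values that left 12451 genes for testing. The cells were muscle stem cells (MuSCs) of adult mice, purified from limb and trunk muscles and cultured as proliferating cells. Both groups carried a tamoxifen-dependent Cre recombinase driven from *Pax7*, which marks MuSCs. The 3 Ctrl libraries had the genotype Pax7CreERT/Suv4-20h1WT and the 3 Kmt5b sKO libraries Pax7CreERT/Suv4-20h1KO, where Suv4-20h1 is another name of *Kmt5b*, the methyltransferase that adds a second methyl group to lysine 20 of histone H4. All mice had received tamoxifen.

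An R-loop forms when nascent RNA pairs with its DNA template and leaves the other DNA strand single. Cells limit R-loops in several ways: RNase H1 and the 3-subunit RNase H2 cut the RNA of the hybrid, the helicases AQR and DHX9 unwind it, topoisomerase I removes the negative supercoils in which it forms, the THO complex packages the nascent RNA, and the exonuclease XRN2 degrades RNA behind terminating polymerases. R-loops that persist can block replication forks, and the study introduced murine *Rnaseh1* into MuSCs as a tool against them. The comparison below addresses whether the genes for these factors were themselves transcribed at other levels, relative to all genes, in Kmt5b sKO cells.

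For each gene, reads on the sense strand were counted in the first 400 nt after the start of the listed transcript (TSS region). Reads in the rest of the transcript were counted as the gene body. TSS values are in RPM, scaled within each library to a total over TSS regions. TSS fold changes are therefore relative to that total and not to the whole library. Gene body values are in TPM, which is corrected for length as well and is also scaled within each library. Gene body fold changes are therefore relative too, and a change shared by all genes would not be seen in either region. All TSS regions have the same length, so that levels on either scale can be compared between genes. The pausing index is TSS RPM over gene body TPM. It mixes both scales, and a value of 1 therefore has no meaning of its own. Fold changes are of log2(value + 0.5), Kmt5b sKO over Ctrl, and p-values come from limma, adjusted by Benjamini-Hochberg over all genes tested, with a threshold of 0.1. They measure the spread between these libraries. In bulk cultures, fewer cells that transcribe a gene and less transcription in each cell cannot be told apart.

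The libraries held 1066287 to 3246052 reads in TSS regions in Ctrl and 926904 to 1841069 in Kmt5b sKO. In gene bodies they held 13582334 to 16249112 reads in Ctrl and 7425426 to 12824308 in Kmt5b sKO. Every Kmt5b sKO library was thus shallower in gene bodies than every Ctrl library, so depth went with genotype there. *Kmt5b* itself was not lower in the libraries labelled as knockout, with 30.6, 35.4 and 38.5 TPM in the Ctrl libraries (replicates 1, 2 and 3) against 37.8, 35.0 and 42.6 TPM in the Kmt5b sKO libraries. The sources used here do not give the deleted part, and reads over the whole gene do not check its loss. *Myod1*, a defining factor of myoblasts, lay between 855 and 1328 TPM in all libraries, and *Pax7* between 25.5 and 53.7 TPM. The endothelial marker *Pecam1* was at most 3.04 TPM and the fibroblast marker *Pdgfra* at most 1.06 TPM, while the pan-leukocyte marker *Ptprc* was not among the genes listed. Other markers of these cell types went both ways. The macrophage marker *Cd68* had 214 to 402 TPM, but the leukocyte marker *Itgam* had 0.31 to 0.65 TPM and 0 TSS reads in every library. The fibroblast collagen genes *Col3a1* and *Col1a1* had 36.3 to 54.9 TPM and 1.15 to 11.4 TPM, and *Ly6a* had 3.30 to 7.95 TPM. The endothelial markers *Cdh5* and *Tek* had 0.23 to 1.01 TPM and 0.64 to 1.27 TPM.

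Promoter sequences are shown for *Rnaseh2c* and *Dhx9*. In these members the TSS region was lower in every Kmt5b sKO library than in every Ctrl library. The groups did not overlap, in either direction, for 15.6% of all genes tested. Neither gene passed the threshold (adjusted p = 0.50 and 0.56 from limma), and *Rnaseh2c* had only 6 reads in Kmt5b sKO replicate 2. RefSeq's promoter table of GRCm38.p6 held 6 of the 9 members, and *Rnaseh1*, *Rnaseh2b* and *Thoc1* were not matched. Each sequence gives the 250 bases before the RefSeq start, which in both genes is also the start of the listed transcript. The *Rnaseh2c* promoter lies at chr19:5601623-5601872 on the plus strand and the *Dhx9* promoter at chr1:153487661-153487910 on the minus strand. Capitals mark matches on either strand to 6 motifs, namely the GC box, the CCAAT box, the TATA box, an ETS-type motif and 2 E2F-type motifs, whose letters follow below the sequences.
Rnaseh2c: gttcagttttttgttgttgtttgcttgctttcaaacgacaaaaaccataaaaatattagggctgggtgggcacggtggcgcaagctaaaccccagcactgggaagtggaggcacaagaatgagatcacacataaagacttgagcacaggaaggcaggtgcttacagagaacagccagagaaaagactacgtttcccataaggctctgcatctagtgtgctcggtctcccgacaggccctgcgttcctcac
Dhx9: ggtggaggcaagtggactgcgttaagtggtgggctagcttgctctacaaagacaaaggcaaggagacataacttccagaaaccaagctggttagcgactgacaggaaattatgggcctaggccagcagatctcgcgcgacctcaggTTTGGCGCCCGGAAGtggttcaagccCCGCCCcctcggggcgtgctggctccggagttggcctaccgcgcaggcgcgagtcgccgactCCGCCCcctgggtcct

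None of the 6 motifs was found in the *Rnaseh2c* window. The *Dhx9* window held the E2F-type motif TTTGGCGC beginning 104 bases before the start, directly followed without overlap by the ETS-type motif CCGGAAG at 96 bases, and 2 GC boxes on the opposite strand. Among all 32817 promoters of the table, TTTGGCGC was present in 0.417% and CCGGAAG in 6.9%. The other E2F-type motif, TTTCCCGC, was present in 0.893% and in no member. A GC box (GGGCGG) was present in 32.7% of all promoters and in those of *Dhx9*, *Rnaseh2a* and *Top1* among the 6 members. CCAAT was found in 33.8% of all promoters and in those of *Aqr* and *Rnaseh2a*, and the TATA box TATAAA in 12.4% and in no member. *Aqr* was the other member with CCGGAAG. These are matches of letters and do not show that a factor binds.

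The TSS regions of the members were similar in base composition to those of other genes. Their median G+C content was 67.0%, against 65.5% over 12446 genes. GC skew, the excess of G over C on the sense strand divided by their sum, is known as a feature of promoters that form R-loops. The median skew of the members was 0.081 against 0.067, and 6 of 9 lay above the median of all genes. *Dhx9* had the highest skew of the 9 at 0.159, the 79.8th percentile of all genes. *Top1* had the lowest at -0.152, the 3.9th percentile, so that its first 400 nt were richer in C than in G.

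All members were transcribed in both groups, at levels that differed widely between them. On the TPM scale of the gene body, the means of the 3 Ctrl libraries ran from 80.9 ± 5.99 for *Dhx9* (SD, n = 3) to 9.39 ± 0.358 for *Rnaseh2b*, the 94.4th and 32.0th percentiles of the genes tested. *Dhx9* was above *Top1* in 6 of 6 libraries, and *Top1* above *Rnaseh2a* in 6 of 6. The order of *Rnaseh2a*, *Xrn2*, *Aqr*, *Rnaseh2c* and *Thoc1* was not stable, since each of these was above the next in only 4, 1, 4 and 4 of 6 libraries. *Thoc1* exceeded *Rnaseh1* in 5 of 6 libraries, and *Rnaseh1* exceeded *Rnaseh2b* in all 6. In TSS regions, *Top1* was highest with 191 ± 16.5 RPM in Ctrl and *Rnaseh2c* lowest with 14.5 ± 1.15 RPM. In all 6 libraries *Top1* was above *Dhx9* in the TSS order, *Dhx9* above *Xrn2* and *Xrn2* above *Aqr*. Below *Xrn2*, the genes *Aqr*, *Rnaseh1*, *Thoc1*, *Rnaseh2a* and *Rnaseh2b* changed places between libraries.

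**Figure D1:**
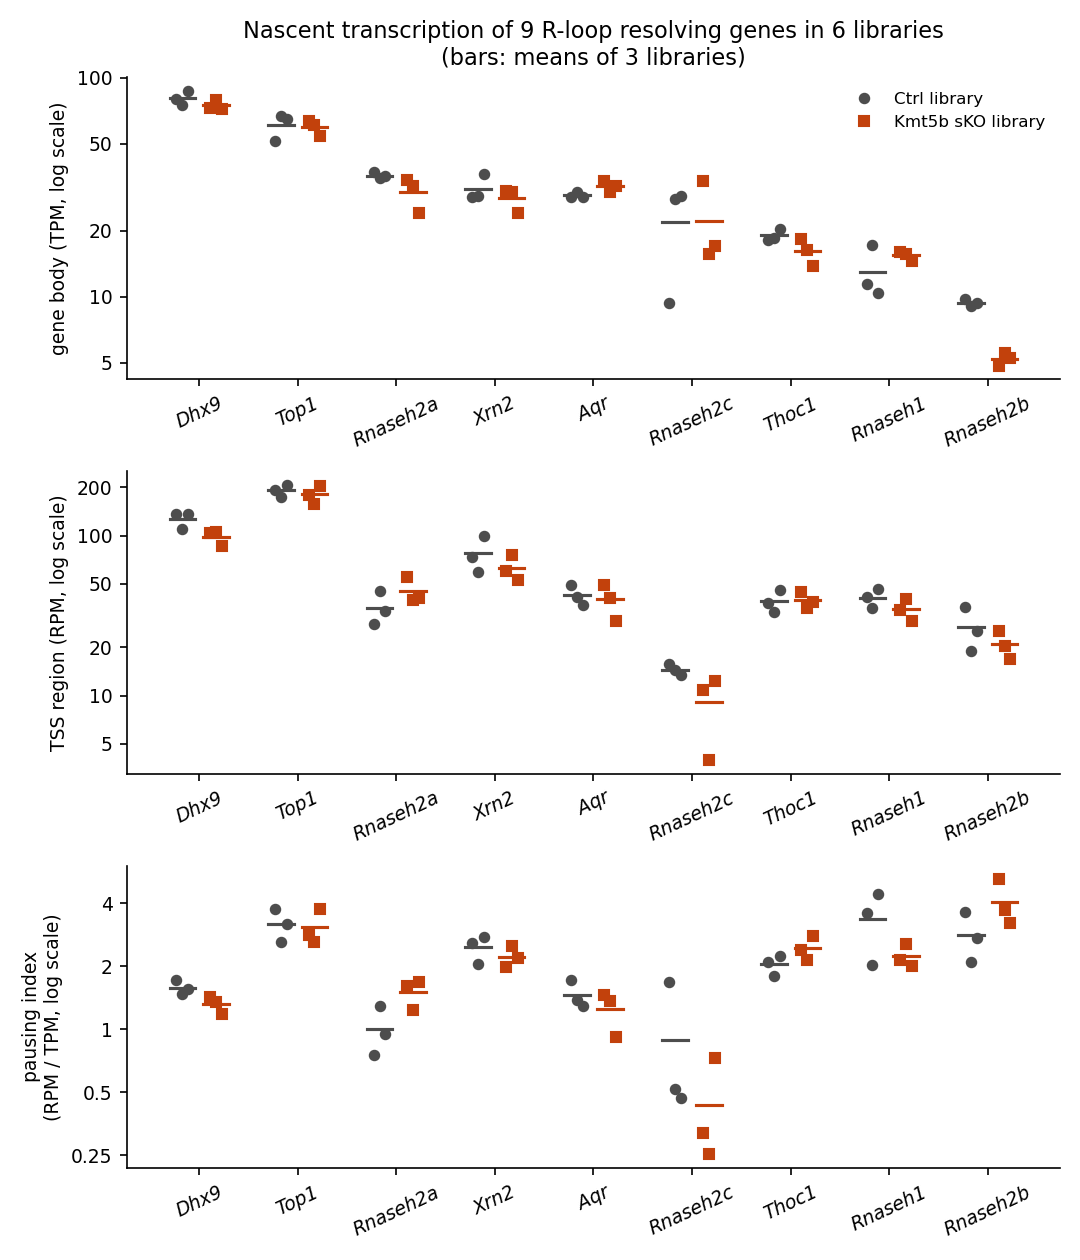
Gene body level (TPM), TSS region level (RPM) and pausing index of the 9 genes, each on a log axis, in 3 Ctrl libraries (grey circles) and 3 Kmt5b sKO libraries (orange squares), with bars at the means of 3. *Rnaseh2b* has 3 Kmt5b sKO gene body values between 4.86 and 5.54 TPM, all below the Ctrl values of 9.06 to 9.77, while for most other genes the groups interleave.

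One member passed the threshold in Kmt5b sKO cells, and it did so in the gene body. *Rnaseh2b* fell, and none of the other 8 members passed in either region. This makes 1 of 9 members called in gene bodies, where 2.99% of all genes tested were called, and 1.38% were called and lower. In TSS regions limma called 0 of 9 members, against 1.66% of all genes. On recovered reads edgeR and DESeq2 also called 0, against 279 and 295 of the 12451 genes tested. An unadjusted p under 0.05 in limma was reached by 0 of 9 members in TSS regions, against 1369 of 12451 genes. For the pausing index limma called 0 of 9 members and 0% of the 11698 genes that could be tested. There 0 of 9 members had an unadjusted p under 0.05, against 452 of the 11698 genes. The median log2 fold change of the members was -0.11 in gene bodies, where the median of all genes was 0.02, and -0.24 in TSS regions, where it was 0.08.

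The enzymes that cut the RNA of the hybrid are RNase H1, a single protein that degrades longer hybrids, and RNase H2, which in addition removes single ribonucleotides from DNA. *Rnaseh1* (ENSMUSG00000020630, chr12:28649602-28659589, plus strand of GRCm38) had a gene body with 11.5, 17.2 and 10.4 TPM in the Ctrl libraries (replicates 1, 2 and 3) against 16.1, 15.8 and 14.7 TPM in the Kmt5b sKO libraries. The Kmt5b sKO values lay within the range of Ctrl, and the log2 fold change of 0.27 had an interval from -0.19 to 0.74 (95%, adjusted p = 0.59). Its TSS region had 41.4, 35.0 and 46.4 RPM in the Ctrl libraries against 34.4, 40.3 and 29.4 RPM in the Kmt5b sKO libraries, and these groups overlapped as well (log2 fold change -0.24, adjusted p = 0.81). The pausing index of *Rnaseh1* was 3.61, 2.03 and 4.45 in the Ctrl libraries against 2.15, 2.55 and 2.01 in the Kmt5b sKO libraries, and overlapped through the low value of Ctrl replicate 2.

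The gene body pattern of *Rnaseh1* over the 6 libraries was one of low values in Ctrl replicates 1 and 3 and similar values in the other 4. The genes most like it, by the root mean square difference of log2 values centered on each gene's mean, were *Setd7*, a lysine methyltransferase (0.057), *Socs5*, a suppressor of cytokine signaling (0.064), and *Cstad* (0.067). *Setd7*, for example, had 21.1, 28.1 and 17.7 TPM in the Ctrl libraries against 25.9, 26.3 and 24.4 TPM in the Kmt5b sKO libraries. Among the other members the closest was *Aqr*, ranked 1334 of 12450 genes.

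RNase H2 is built from the catalytic subunit A, encoded by *Rnaseh2a*, and the accessory subunits B and C, which it needs for its activity. Subunit B also carries the contact to the sliding clamp PCNA that brings the enzyme to replication and repair sites. *Rnaseh2b* (ENSMUSG00000021932) occupies chr14:62332068-62372992 on the plus strand of GRCm38. Its listed transcript has 11 exons, which cover 3.42% of the 40524 nt gene body, and no other gene overlaps it or lies within 1000 nt.

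In the gene body of *Rnaseh2b*, Ctrl replicates 1 to 3 had 9.77, 9.06 and 9.34 TPM, which corresponded to 579, 418 and 541 reads. Kmt5b sKO replicates 1 to 3 had 4.86, 5.54 and 5.28 TPM, from 219, 147 and 204 reads. All 3 Kmt5b sKO libraries were below all 3 Ctrl libraries, and the gap between the groups was larger than the spread within either. The log2 fold change was -0.79 ± 0.14 (SE), a 1.73-fold lower level, with a 95% interval from -1.12 to -0.46 and an adjusted p of 0.069 from limma. The size of this change varied little when libraries were left out one at a time, from -0.83 to -0.74. Its adjusted p rose above 0.1 without Ctrl replicate 1 (0.22) or 2 (0.11) and without Kmt5b sKO replicate 1 (0.21), 2 (0.16) or 3 (0.23), and was 0.054 without Ctrl replicate 3. In the fits without Ctrl replicate 1 or any Kmt5b sKO library, 0 of 12451 genes were called, with 1374 to 1706 at an unadjusted p under 0.05. On recovered reads, edgeR gave *Rnaseh2b* an adjusted p of 0.024 and DESeq2 one of 3.5e-05.

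At the TSS region of *Rnaseh2b* the groups overlapped. It held 35.6, 19.0 and 25.4 RPM in the Ctrl libraries against 25.2, 20.5 and 17.0 RPM in the Kmt5b sKO libraries, with a log2 fold change of -0.31 and an interval from -0.94 to 0.31 (adjusted p = 0.80). This interval, from 31 to 147 reads per library, contains the value of the gene body and does not exclude an equal fall at the start of the gene. The pausing index was 3.64, 2.09 and 2.72 in the Ctrl libraries against 5.19, 3.70 and 3.22 in the Kmt5b sKO libraries. It was higher on average but overlapped between the groups, with a log2 difference of 0.53 and an interval from -0.13 to 1.18 (adjusted p = 1.0).

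The catalytic subunit gene *Rnaseh2a* (ENSMUSG00000052926) lies on the minus strand at chr8:84956610-84969740. Gene body levels were 37.1, 34.7 and 35.5 TPM in the Ctrl libraries against 34.2, 32.0 and 24.1 TPM in the Kmt5b sKO libraries. The groups did not overlap, but the highest Kmt5b sKO value was close to the lowest Ctrl value, and the log2 fold change of -0.26 did not pass the threshold (interval -0.63 to 0.11, adjusted p = 0.50). The TSS region was higher on average in Kmt5b sKO, with 27.8, 44.8 and 33.5 RPM in the Ctrl libraries against 55.1, 39.6 and 40.5 RPM in the Kmt5b sKO libraries (log2 fold change 0.35, adjusted p = 0.69), and these values overlapped. Its pausing index was 0.750, 1.29 and 0.946 in the Ctrl libraries against 1.61, 1.24 and 1.68 in the Kmt5b sKO libraries, and Kmt5b sKO replicate 2 was below the highest Ctrl library.

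The annotation limits what these *Rnaseh2a* values describe. The listed transcript starts 3664 nt upstream of the RefSeq start, and 4 of the 7 coding transcripts of the gene begin inside the region counted as gene body. The TSS region overlaps 154 nt of *Prdx2* on the opposite strand and 93 nt of *Gm49661* on the same strand, which also shares 1662 nt of the gene body. Reads in the stretch shared with *Gm49661* cannot be assigned to one of both genes.

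The third subunit gene, *Rnaseh2c* (ENSMUSG00000024925), is short, at chr19:5601873-5603439 on the plus strand, and its gene body of 1166 nt collected only 12 to 48 reads per library. Gene body levels were 9.38, 27.9 and 28.8 TPM in the Ctrl libraries against 34.0, 15.7 and 17.1 TPM in the Kmt5b sKO libraries. Each group held a library far from the other 2, and the interval of the log2 fold change, -1.01 to 1.18 around 0.09, reached a fall of 2 times as well as a rise of 2 times. The sign of that change turned without Ctrl replicate 1 (-0.43) and without Kmt5b sKO replicate 1 (-0.26). In the last 426 nt of the gene body *Kat5* lies on the opposite strand.

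The TSS region of *Rnaseh2c*, downstream of the first promoter shown above, held 15.7, 14.4 and 13.5 RPM in the Ctrl libraries against 10.8, 3.96 and 12.4 RPM in the Kmt5b sKO libraries. All Kmt5b sKO values were below all Ctrl values, as in either direction for 15.6% of the genes tested. The low value of Kmt5b sKO replicate 2 rested on 6 reads, and the other libraries had 25 to 71 reads. The log2 fold change was -0.79 (interval -1.63 to 0.05, adjusted p = 0.50), and it was -0.31 without Kmt5b sKO replicate 2.

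Ratios of the subunit genes within a library do not depend on how the library was scaled. Gene body TPM of *Rnaseh2a* over that of *Rnaseh2b* was 3.80, 3.83 and 3.80 in the Ctrl libraries against 7.04, 5.78 and 4.56 in the Kmt5b sKO libraries. The 3 Ctrl libraries were nearly identical, and every Kmt5b sKO library was above them. The mean log2 ratio was 1.93 ± 0.0074 in Ctrl and 2.51 ± 0.31 in Kmt5b sKO (SD, n = 3), a difference of 0.58 with p = 0.1 in a two-sided exact permutation test, the smallest p that 3 against 3 libraries allow, and 0.3 after adjustment over the 3 pairs of subunits. The ratios with *Rnaseh2c* overlapped between the groups. Log2 of *Rnaseh2a* over *Rnaseh2c* differed by -0.36 (exact p = 0.7) and log2 of *Rnaseh2b* over *Rnaseh2c* by -0.94 (exact p = 0.4), with SDs of 0.97 in Ctrl for both, where replicate 1 had the lowest *Rnaseh2c* value.

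**Figure D2:**
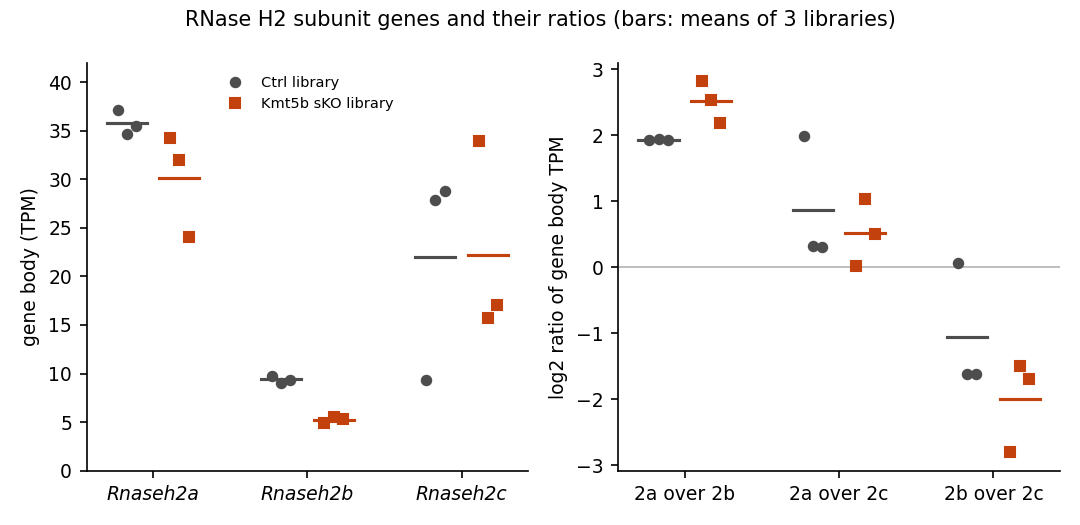
Left, gene body TPM of the RNase H2 subunit genes in 3 Ctrl (grey circles) and 3 Kmt5b sKO libraries (orange squares), with bars at the means. Right, log2 ratios of gene body TPM between subunit genes in the same libraries: only the ratio of *Rnaseh2a* over *Rnaseh2b* separates the groups, at 1.93 to 1.94 in Ctrl and 2.19 to 2.82 in Kmt5b sKO.

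The helicase genes were among the better measured members. AQR is a helicase of the spliceosome, and DHX9 unwinds RNA and RNA-DNA hybrids. *Aqr* (ENSMUSG00000040383, chr2:114101170-114175339, minus strand) had 28.5, 30.2 and 28.6 TPM in the Ctrl libraries against 33.6, 30.2 and 32.2 TPM in the Kmt5b sKO libraries in its gene body, from 1460 to 3077 reads per library. Kmt5b sKO values were all higher, the lowest of them only just, and the log2 fold change of 0.14 did not pass the threshold (interval -0.13 to 0.40, adjusted p = 0.65). A doubling or a halving was outside this interval. The TSS region of *Aqr* had 49.1, 41.4 and 36.8 RPM in the Ctrl libraries against 49.2, 40.9 and 29.4 RPM in the Kmt5b sKO libraries, which overlapped (log2 fold change -0.11, adjusted p = 0.93).

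*Dhx9* (ENSMUSG00000042699, chr1:153455758-153487660, minus strand) was lower in every Kmt5b sKO library at the TSS region, with 137, 110.3 and 136 RPM in the Ctrl libraries against 104, 106 and 85.5 RPM in the Kmt5b sKO libraries. The log2 fold change of -0.37 (interval -0.81 to 0.06, adjusted p = 0.56) did not pass the threshold. In the gene body the groups overlapped, at 80.1, 75.4 and 87.3 TPM in the Ctrl libraries against 73.0, 78.8 and 72.2 TPM in the Kmt5b sKO libraries, with a log2 fold change of -0.11 (interval -0.40 to 0.17, adjusted p = 0.73). Its pausing index was 1.71, 1.46 and 1.55 in the Ctrl libraries against 1.42, 1.34 and 1.18 in the Kmt5b sKO libraries. These groups did not overlap, but how many of all genes shared this was not counted for the pausing index. The difference, -0.26 on the log2 scale, was not called either (adjusted p = 1.0).

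Topoisomerase I relaxes DNA ahead of and behind the polymerase. *Top1* (ENSMUSG00000070544, chr2:160645888-160722764, plus strand) had the smallest gene body fold change of the 9, with 51.3, 66.8 and 64.8 TPM in the Ctrl libraries against 63.6, 61.0 and 54.4 TPM in the Kmt5b sKO libraries. The log2 fold change was -0.03, with an interval from -0.37 to 0.32. Its TSS region, the highest of the members, had 193, 174 and 207 RPM in the Ctrl libraries against 180.0, 158 and 204 RPM in the Kmt5b sKO libraries, and the groups overlapped (log2 fold change -0.09, adjusted p = 0.94).

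THOC1 is a core subunit of the THO complex, which couples transcription to the packaging and export of mRNA. *Thoc1* (ENSMUSG00000024287, plus strand of chromosome 18) had gene body levels of 18.1, 18.6 and 20.4 TPM in the Ctrl libraries against 18.5, 16.4 and 13.9 TPM in the Kmt5b sKO libraries. Only Kmt5b sKO replicate 1 overlapped with Ctrl, and the log2 fold change of -0.23 did not pass the threshold (interval -0.58 to 0.11, adjusted p = 0.53). Its TSS region was at 38.0, 33.3 and 45.6 RPM in the Ctrl libraries against 44.2, 35.0 and 38.6 RPM in the Kmt5b sKO libraries, with a log2 fold change of 0.02. The deposited start of *Thoc1* differs from that in GENCODE vM21, where the other 8 members start and end at the listed positions, and *Usp14* overlaps the end of the gene on the opposite strand.

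XRN2 digests RNA from its 5′ end after cleavage at the polyadenylation site. *Xrn2* (ENSMUSG00000027433, chr2:147012996-147078000, plus strand) had gene body levels of 28.5, 28.8 and 36.2 TPM in the Ctrl libraries against 30.3, 30.1 and 24.1 TPM in the Kmt5b sKO libraries, which overlapped (log2 fold change -0.14, adjusted p = 0.74). The TSS region held 73.4, 59.2 and 99.4 RPM in the Ctrl libraries against 60.0, 75.3 and 52.4 RPM in the Kmt5b sKO libraries. Ctrl replicate 3 was the highest library for both regions of *Xrn2*, and the groups overlapped at the TSS as well (log2 fold change -0.29, adjusted p = 0.75).

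**Figure D3:**
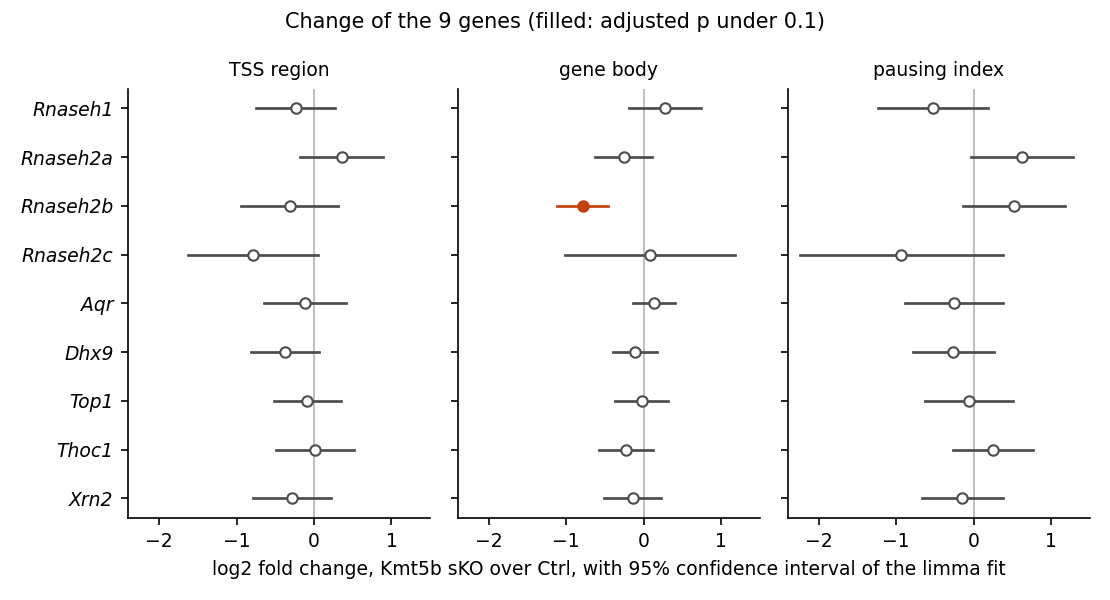
Log2 fold change of Kmt5b sKO over Ctrl with the 95% confidence interval of the limma fit for the TSS region, the gene body and the pausing index of each of the 9 genes. The gene body of *Rnaseh2b*, at -0.79 with an interval from -1.12 to -0.46, is the one filled point (adjusted p under 0.1). The intervals are widest for *Rnaseh2c*, the gene with the fewest reads.

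Counted over the members, gene body values did not overlap between the groups for *Rnaseh2b*, *Rnaseh2a* and *Aqr*, which is 3 of 9 where 21.4% of all genes tested did not overlap. In TSS regions this held for *Dhx9* and *Rnaseh2c*, 2 of 9 against 15.6%. The TSS fold change was below 0 for 7 of 9 members and that of the gene body for 6 of 9, against 41.8% and 46.2% of all genes tested.

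The other genes known to act on R-loops, listed with earlier results of these data known, were set beside the members by role. Their share of calls is therefore not that of an unselected list. Of 44 such genes tested, 7 were called in the gene body and all 7 were lower in Kmt5b sKO, against 2.99% of all genes called. The median log2 fold change of the 44 was -0.18, with 35 genes below 0, against 46.2% of all genes tested. In TSS regions 2 of 44 were called, both lower, against 1.66% of all genes, and the median was -0.20. *Thoc2*, on the X chromosome, was not tested.

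All fork protection genes of this list fell in the gene body. *Brca1*, *Brca2*, *Fanca*, *Fancd2* and *Fanci*, whose products guard stalled forks and repair crosslinks and breaks, were called in 5 of 5 cases, with log2 fold changes from -1.07 to -0.88. *Fancd2*, for example, had 7.82, 6.49 and 5.52 TPM in the Ctrl libraries against 2.56, 3.17 and 2.89 TPM in the Kmt5b sKO libraries, a 2.10-fold lower level with an adjusted p of 0.065. *Brca2* had 8.24, 9.27 and 9.69 TPM in the Ctrl libraries against 4.89, 4.61 and 3.84 TPM in the Kmt5b sKO libraries (log2 fold change -0.95, adjusted p = 0.065). For all 5 genes both the gene body and the TSS region of every Kmt5b sKO library lay below every Ctrl library. In TSS regions none of the 5 passed the adjusted threshold in limma, while 5 of 5 had an unadjusted p under 0.05 and edgeR and DESeq2 called 3 each. Of all 12451 genes, 1369 had an unadjusted p under 0.05 in limma there, and edgeR called 279 and DESeq2 295.

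Without the fork protection genes, 2 of 39 (5.13%) were called in gene bodies, against 2.99% of all genes tested. *Pif1*, a helicase that unwinds G-quadruplexes and hybrids, had 31.3, 24.9 and 20.2 TPM in the Ctrl libraries against 11.5, 11.6 and 11.4 TPM in the Kmt5b sKO libraries (log2 fold change -1.10, adjusted p = 0.064). *Top2a*, the topoisomerase of dividing cells, had 81.9, 66.3 and 46.7 TPM in the Ctrl libraries against 29.8, 27.7 and 29.3 TPM in the Kmt5b sKO libraries (log2 fold change -1.12, adjusted p = 0.070). Its TSS region fell too, by 1.29 on the log2 scale (adjusted p = 0.041), as did that of *Rpa2*, a subunit of the single-strand binding protein RPA, by 0.98 (adjusted p = 0.070). In both genes every Kmt5b sKO library was lower than every Ctrl library in those regions.

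Of the 13 helicases, *Pif1* included, 1 was called by limma, 2 by edgeR and 3 by DESeq2, and 3 had an unadjusted p under 0.05. Of the 12451 genes tested in gene bodies, limma called 2.99%, edgeR 748 and DESeq2 1295. In limma 1981 of them had an unadjusted p under 0.05. The median gene body log2 fold change of the 13 helicases was -0.12, with 12 of 13 below 0. For 6 of 13 every Kmt5b sKO library was lower than every Ctrl library. In either direction, 21.4% of all genes tested did not overlap. None of the 7 THO and export factors tested was called, with a median of -0.02, and none of the 5 nuclease and termination genes, with a median of 0.01. Both lists had 0 gene body calls in limma, edgeR and DESeq2, and their counts at an unadjusted p under 0.05 were 0 and 1. Of the 5 single-strand binding and splicing factor genes 0 were called by limma, with 3 at an unadjusted p under 0.05, 2 by edgeR and 2 by DESeq2, and their median was -0.62. The largest increases on the log2 scale among the 44 genes were those of *Thoc6* (0.51, adjusted p = 0.39) and *Ercc5* (0.44, adjusted p = 0.25), and the largest decreases that did not pass the threshold were those of *Rpa3* (-0.74, adjusted p = 0.45) and *Srsf2* (-0.72, adjusted p = 0.11).

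Genes of DNA replication and mitosis, also listed with earlier results of these data known, were set beside the members as well. Their share of calls, too, is not that of an unselected list. Of 21 such genes tested, 12 were called in the gene body, against 2.99% of all genes, and all 12 were lower: *Mcm3*, *Mcm5*, *Mcm6*, *Pcna*, *Rrm1*, *Rrm2*, *Pole*, *Gins1*, *Fen1*, *Lig1*, *Bub1* and *Cdk1*. The range of log2 fold changes over the 21 was -1.44 to -0.02 with a median of -0.98. The 9 that did not pass included *Ccnb1* (-0.02, adjusted p = 0.97) and *Mcm7* (-0.21, adjusted p = 0.76), the 2 nearest to 0. Their summed level, including *Pola1*, ranged from 989.8 to 1086 TPM over the Ctrl libraries and from 605 to 661 TPM over the Kmt5b sKO libraries. In TSS regions *Mcm5*, *Mcm7* and *Pcna* were called, lower in Kmt5b sKO.

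All 6 markers of differentiated muscle tested had a gene body log2 fold change above 0, with a median of 0.69, and 2 of 6 had an unadjusted p under 0.05 but 0 of 6 were called by limma, 1 by edgeR and 2 by DESeq2. Their summed level ranged from 1344 to 2831 TPM in Ctrl and from 2994 to 3949 TPM in Kmt5b sKO. The 6 markers of MuSCs and myoblasts summed to 1492 to 2257 TPM in the Ctrl libraries and 1999.6 to 2712 TPM in the Kmt5b sKO libraries. Of these, 0 of 6 were called by limma or edgeR and 1 of 6 by DESeq2. Of all 12451 genes, limma called 2.99%, edgeR 748 and DESeq2 1295 in gene bodies, and 1981 had an unadjusted p under 0.05 in limma. Of the Schwann cell markers, *Sox10* rose (2.14 to 4.10 TPM in Ctrl, 8.14 to 15.5 TPM in Kmt5b sKO, adjusted p = 0.075). The part of proliferation, differentiation and other cells in the change of *Rnaseh2b* and of the fork protection genes was not tested.

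**Figure D4:**
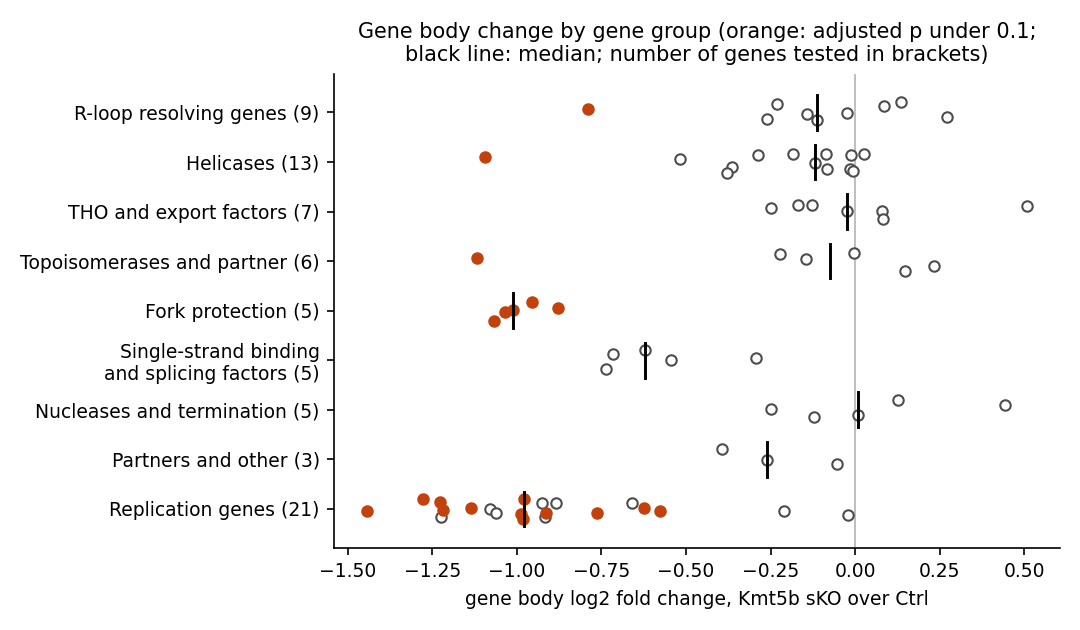
Gene body log2 fold change of Kmt5b sKO over Ctrl for the 9 R-loop resolving genes, the other R-loop genes by role and the replication genes, one point per gene, filled orange where the adjusted p was under 0.1 and with a black line at each median. The 5 fork protection genes and most replication genes lie near -1, whereas the R-loop resolving genes other than *Rnaseh2b* lie between -0.26 and 0.27.

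The calls in these lists depended on the libraries included, as did the calls over all genes tested. Among the other R-loop genes, gene body calls went from 7 to 11 without Ctrl replicate 3, to 1 without Ctrl replicate 2, and to 0 without Ctrl replicate 1 or Kmt5b sKO replicate 1, 2 or 3. Their TSS calls went from 2 to 6 without Ctrl replicate 2, to 1 without Kmt5b sKO replicate 3, and to 0 without Ctrl replicate 1 or Kmt5b sKO replicate 1 or 2, as they did without the filter on low values or the trend of the variance. Gene body calls among the replication genes went from 12 to 17 without Ctrl replicate 3, to 4 without Ctrl replicate 2 and to 0 without any other library. Over all genes, gene body calls went from 372 to 836, 261 and 0 in the same fits. All-gene TSS calls went from 207 to 408 without Ctrl replicate 2 and to 1 without Ctrl replicate 1. They were 16, 132 and 46 without Kmt5b sKO replicate 1, 2 and 3, and 0 without the filter or the trend. Log2 fold changes of the 5 fork protection genes in the gene body stayed between -1.19 and -0.77 in all of these fits.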

How the data were processed

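PRO-seq was done on proliferating MuSCs, with 3 Ctrl and 3 Kmt5b sKO libraries grouped by the genotype labels. Per the submitters' processing notes, reads were handled with FastQC 0.11.8, Trimmomatic 0.39, STAR 2.6.1d and Picard 2.18.16 on mm10 (GRCm38). The authors deposited 1 table with sense-strand values for 14546 transcripts. TSS values, which the deposited header names TPM, are called RPM here. They are reads in the first 400 nt, scaled within each library to a total over TSS regions. At equal length this is the same scale as TPM. In Ctrl replicate 1, 1 read was worth 0.242 RPM, too much for a scale over a library with 16249112 gene body reads. Gene body values were deposited as TPM, corrected for length. Since TSS values are whole multiples of 1 read's worth in 99.986% of entries or more (tolerance 0.1 reads), and gene body values of genes under 2000 nt in 99.387% or more, read counts were recovered from the deposited values and used for edgeR and DESeq2 alternatives only. All 12 columns of values were used.

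Genes on X or Y, or averaging under 0.5 in either region, were left out. log2(value + 0.5), or log2 of the pausing index without a pseudocount, was tested with limma 3.58.1 (lmFit, eBayes with a trend, R 4.3.3) and adjusted by Benjamini-Hochberg. Subunit ratios were compared by exact permutation. The script was tested on simulated data. Alternatives changed the pseudocount, filter, scaling, tool, libraries or block. All 9 members were named, other R-loop and replication genes where called, the R-loop genes with the 2 largest rises and falls otherwise, and for *Rnaseh1* the 3 genes nearest in pattern. Members and lists were chosen with earlier results of these data known. The marker genes printed with values were chosen after their values were seen. Markers of endothelium, leukocytes and fibroblasts gave 0 calls by limma among 1, 1 and 4 genes tested. Transcripts were matched to GENCODE vM21 by name (14519 of 14546), and promoters came from RefSeq (GRCm38.p6).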

Additional observations from a re-analysis of the deposited data

How the results depend on the processing

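The direction of 27 log2 fold changes of the members (9 genes, 3 measures) was compared over 396 alternative values. It turned in 17, none of them called. Leaving out 1 library gave *Rnaseh2c* -0.43 to 0.355 in the gene body, *Aqr* -0.275 to 0.090 in the TSS region, *Top1* -0.176 to 0.004 in the TSS region, -0.143 to 0.045 in the gene body and -0.217 to 0.067 for the pausing index, and *Thoc1* -0.090 to 0.135 in the TSS region. DESeq2 turned *Rnaseh2c* in the gene body (-0.007). The TSS region of *Thoc1* turned with equal library medians (-0.047), quantile normalization (-0.036), edgeR (-0.078) and DESeq2 (-0.089). *Mcm7* in the gene body ranged from -0.489 to 0.003. The cause was not tested.

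No member gained a call. Leaving out 1 library gave 0 to 1 called members in gene bodies, 0 in TSS regions and 0 for the pausing index. Over the same fits, other R-loop genes called ranged from 0 to 11 in gene bodies and from 0 to 6 in TSS regions, and replication genes from 0 to 17. The log2 subunit ratios differed by 0.43 to 0.74 (*Rnaseh2a* over *Rnaseh2b*), -0.64 to 0.20 (*Rnaseh2a* over *Rnaseh2c*, which turned without Ctrl replicate 1) and -1.22 to -0.38 (*Rnaseh2b* over *Rnaseh2c*). DESeq2 called 11 other R-loop genes in gene bodies, 6 in TSS regions and 19 replication genes. In TSS regions, edgeR, equal medians and quantile normalization called 5 other R-loop genes each, and no filter or no trend 0. Over all genes tested, DESeq2 called 1295 in gene bodies and 295 in TSS regions. All-gene calls in TSS regions were 279 with edgeR, 226 with equal medians, 218 with quantile normalization and 0 with no filter or no trend.

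With the replicate number as a block, *Rnaseh2b* kept its log2 fold change of -0.79 (adjusted p = 0.26) and 0 members, 0 other R-loop genes in either region and 0 replication genes were called, as were 0 of all 12451 genes in either region. Same-numbered libraries did not deviate together. Their correlations were -0.15, -0.17 and -0.33 in gene bodies and -0.03, -0.13 and -0.16 in TSS regions. Deviations from means of 3 libraries cannot decide whether same-numbered samples were prepared together. Depth limits *Rnaseh2c* most, with 6 to 71 reads per region and library.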
